A study of Homo sapiens with 10 samples.

Results

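A p53 knockout line and a control line, both made from the osteosarcoma cell line U2OS, were compared after both had received a small interfering RNA (siRNA) against SET. The comparison uses 5 of the 10 libraries of the series, chosen by their titles: 2 libraries of the p53 knockout line with SET siRNA and 3 of the control line with SET siRNA. The control line came from a control CRISPR/Cas9 construct and carries p53, and the knockout line is described as having lost p53. The other 5 libraries, 2 of the knockout line and 3 of the control line, received a control siRNA, and are used where the difference between the lines under SET siRNA is set beside that without SET depletion. All transfections lasted 96 h. Each line was obtained by selection and clone identification, so any other difference between the clones cannot be told apart from the loss of p53. The labels call the libraries biological replicates but do not say what separates one culture from the next, and every p-value refers to the spread among these libraries, which may be technical.

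p53 is a transcription factor that binds DNA as a tetramer and activates genes for cell cycle arrest, apoptosis and DNA repair, among them CDKN1A and its own inhibitor MDM2. Many cell cycle genes are lowered by p53 indirectly, through the CDK inhibitor p21 and repressor complexes of the RB family. SET is a histone chaperone and an inhibitor of protein phosphatase 2A (PP2A) that binds the basic, unacetylated tail of p53 through its own acidic region and restrains p53 activity.

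The values are FPKM, fragment counts normalised to transcript length and library size, as the authors computed them. Between 13804 and 14153 genes reached FPKM 1 in a library, and the 14813 genes that reached this level in 2 or more libraries were tested. The depth of the libraries was not stated. Among genes of FPKM 10 or more, the median half-width of the authors' interval was 5.17 to 6.45% of the value. Blood cell markers summed to 0.312 to 0.564 FPKM per library and endothelial markers to 0.984 to 1.78, and no member of either list was tested. Of the osteoblast markers, RUNX2, SPARC and COL1A1 were present, while BGLAP and IBSP were at or near 0 in every library and SP7 and COL1A2 did not pass the filter. Of 104 genes chosen for naming by rule, 26 overlap another entry of the files, and strand use in counting is not stated, so these genes (SET with HMGA1P4 among them) may share reads with a neighbour. Gene coordinates are those of the files, counted from 1, in a genome build that is not given in the sources used here.

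The siRNA target was low in both lines. SET mRNA (chromosome 9, 131445934 to 131458675) stood at 12.3, 13.3 and 12.01 FPKM in the control line and 14.9 and 14.9 in the knockout line with SET siRNA, against 121 to 126 and 158 to 170 with control siRNA. The slightly higher SET level of the knockout line under SET siRNA (0.24, limma adjusted p = 0.0046) was also seen under control siRNA (0.40), and the difference between these values did not pass the test (limma adjusted p = 0.146).

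Under SET siRNA the lines differed across much of the transcriptome. At an adjusted p below 0.05, 7173 of 14813 genes (48.4%) were called, 3501 (23.6%) higher and 3672 (24.8%) lower in the knockout line. Few of these were large: 137 genes (0.925%) were at least 2-fold higher and 390 (2.63%) at least 2-fold lower on the log2(FPKM + 1) scale, which understates changes of low genes. The large differences were thus mostly losses in the knockout line, while the median over all tested genes was -0.0036. Because the called share is this large, the counts of gene lists below are read against these shares.

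CDKN1A, which encodes the CDK inhibitor p21, had the largest difference of the tested genes on the log2(FPKM + 1) scale once small RNAs are left out. Its FPKM was 741, 721 and 699 in the control line and 19.4 and 19.3 in the knockout line, both with SET siRNA. The difference was -5.15 (standard error 0.051, limma adjusted p = 4.0e-11), a 37.2-fold ratio of mean FPKM. By that ratio it was not the largest. Genes near 0 in the knockout line, such as INPP5D (644-fold) and PVRL4 (257-fold), exceeded it. So did LOC643714 (509-fold higher in the knockout line). With control siRNA the same gene (chromosome 6, 36644237 to 36655116) stood at 163, 170 and 153 FPKM in the control line and 6.84 and 6.51 in the knockout line. The 3 control line libraries with SET siRNA were thus above every other library, and knockout cells with SET siRNA were below control cells with either siRNA. The difference between lines was larger under SET siRNA than under control siRNA by 0.74 on the log2(FPKM + 1) scale (interaction -0.74).

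The p53 targets that act in arrest and feedback were lower in the knockout line almost throughout. All 16 tested genes of this list of 17 were called lower (median -2.31, against -0.0036 over all tested genes), and 15 were at least 2-fold lower. RPRM was not tested. MDM2 (chromosome 12, 69201971 to 69239212), the ubiquitin ligase that degrades p53, stood at 213, 212 and 188 FPKM in the control line and at 16.4 and 16.8 in the knockout line (-3.54, limma adjusted p = 5.9e-09). GDF15, a secreted stress cytokine, stood at 203, 185 and 192 against 14.6 and 16.9 FPKM (-3.54, limma adjusted p = 3.5e-08), and its interval in the files overlaps another entry, LOC100653010. BTG2, an antiproliferative cofactor of mRNA decay, stood at 82.4, 88.2 and 79.3 against 5.14 and 4.29 FPKM (-3.88, limma adjusted p = 5.9e-09), and overlaps LOC100652867. In these 3 genes, as in CDKN1A, knockout libraries lay far below control libraries with no overlap. That order was a condition for naming CDKN1A and BTG2 among the largest falls, and 35.4% of all tested genes had it. SESN1, a sestrin that restrains mTORC1, differed by -3.36 and PML, a scaffold of nuclear bodies, by -0.48, the smallest difference of the list.

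Apoptosis genes under p53 were mostly lower, with smaller differences. Of 12 tested genes of 16 listed, 10 were lower, 1 was higher and 1 was not called (median -1.31). FAS, the death receptor, stood at 27.6, 27.2 and 26.3 FPKM in the control line and 1.64 and 1.86 in the knockout line (-3.35, limma adjusted p = 5.9e-09). It overlaps the smooth muscle actin gene ACTA2 and FAS-AS1 in the files, and ACTA2 itself differed by -2.87, so reads of these genes may not be separable. BBC3, the BH3-only protein PUMA, stood at 48.6, 43.2 and 44.1 FPKM against 11.0 and 12.7 (-1.85, limma adjusted p = 7.2e-06). TP53I3, an oxidoreductase, and PIDD, an adaptor of caspase-2 activation, were lower by -1.98 and -1.83. BAX, the pore-forming effector, was lower by -1.22, at 225, 214 and 238 against 98.7 and 94.5 FPKM. BID, a BH3-only protein, was the 1 higher gene (0.32, limma adjusted p = 0.0121), a count that became 0 without knockout SET siRNA library 1 and 2 without library 2. TNFRSF10C, a decoy receptor, was not called, and TNFRSF10A, TNFRSF10D, TP53AIP1 and CASP1 were not tested.

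The targets in repair, metabolism and other functions were lower in 27 of 29 tested genes of 32 listed, and 24 were at least 2-fold lower (median -1.77). SCO2 and ALDH4A1 were not called, and CPT1C, SPATA18 and ABCA12 were not tested. INPP5D, a lipid phosphatase, stood at 17.5, 16.4 and 16.0 FPKM in the control line and at 0.0157 and 0.0360 in the knockout line (-4.10, limma adjusted p = 6.7e-10). TRIM22, an interferon-inducible ubiquitin ligase, stood at 25.3, 23.7 and 23.5 against 0.523 and 0.509 FPKM (-4.05, limma adjusted p = 4.4e-10). RRM2B, the p53-inducible subunit of ribonucleotide reductase, stood at 156, 157 and 143 against 13.4 and 13.97 (-3.38), and FDXR, a mitochondrial ferredoxin reductase, at 123, 115 and 120 against 11.9 and 11.6 (-3.23). DDB2, a damage sensor of nucleotide excision repair, stood at 115, 112 and 115 against 11.9 and 11.7 (-3.17). Over the 3 lists together, 53 of 57 tested targets were lower, 46 of them at least 2-fold, and in 54 every knockout library lay below every control library, against 35.4% of all tested genes (34.7% had the opposite order). Membership of these lists rests on p53 regulation known from elsewhere, and their direction here was already known when they were written down.

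**Figure D1:**
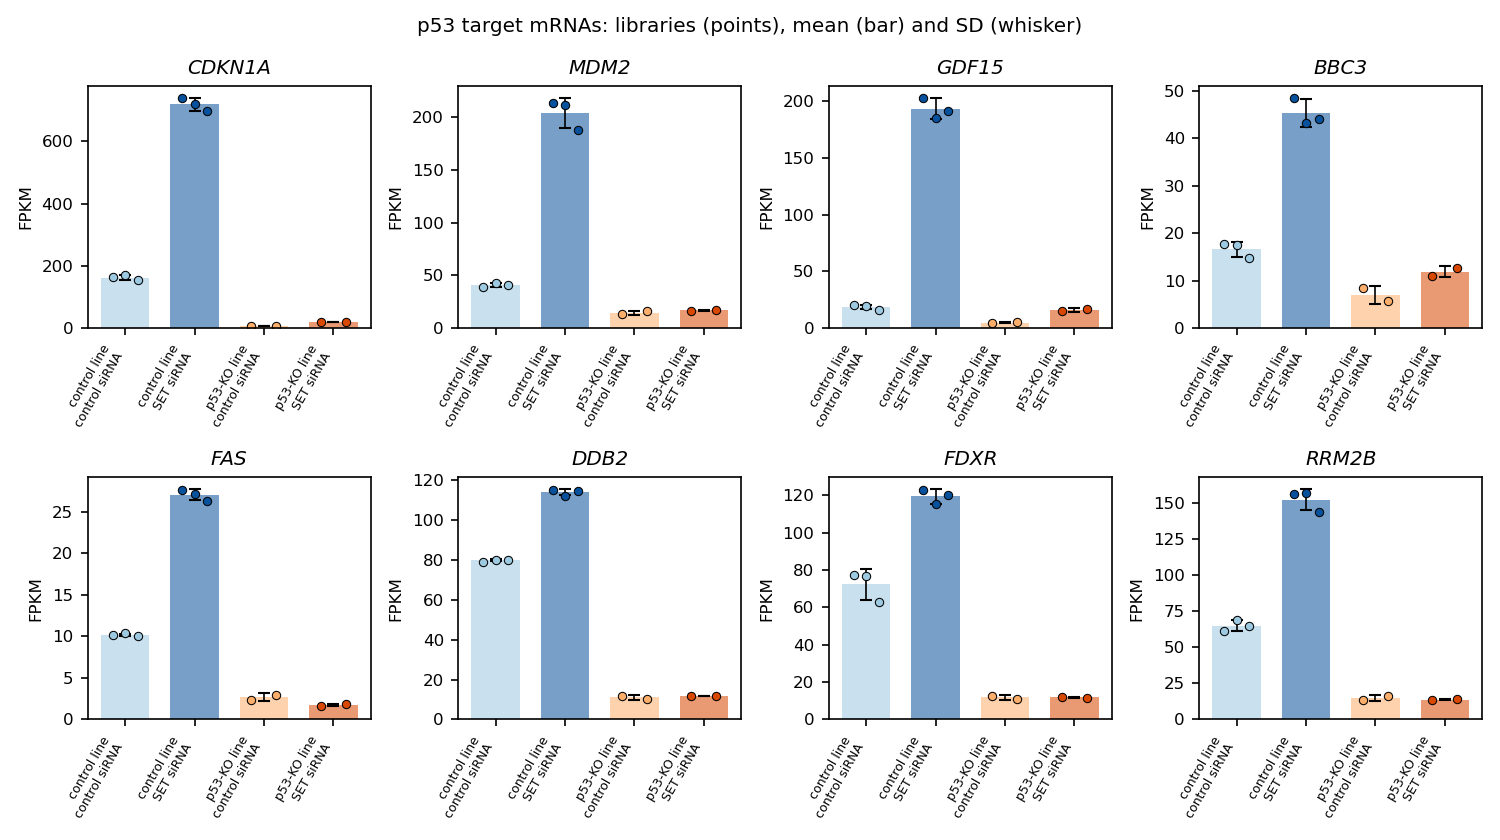
FPKM of 8 p53 target genes in the 4 groups, with libraries as points, the mean as a bar and the standard deviation as a whisker. In each panel the SET siRNA libraries of the control line are the highest and the knockout libraries lie below them.

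The same target lists under control siRNA also sat lower in the knockout line, with smaller medians. With control siRNA 47.9% of all tested genes were called, 22.2% lower, and 1.88% at least 2-fold lower. Of the 57 tested targets, 47 were called lower (28 at least 2-fold) and 0 higher, with a median of -0.91 against -1.76 under SET siRNA. Among all tested genes 25.7% were called higher there. In 46 targets the test of the difference between the siRNAs was negative, so that the knockout line was further below the control line under SET siRNA, and in 2 it was positive. Over all tested genes the interaction was called in 2831 (19.1%), 1557 (10.5%) negative and 1274 (8.6%) positive. Small RNAs left out, MDM2 had the most negative interaction (-2.10), since its level in the control line was 38.7 to 42.9 FPKM under control siRNA and 188 to 213 under SET siRNA, while the knockout line stayed at 13.1 to 16.8 under both. TP53I3 moved from -0.36 under control siRNA to -1.98, and CCNG1, a cyclin G, from -0.17, not called, to -1.10. The 2831 count rests on single libraries: it was 1820 and 1760 without SET siRNA libraries 1 and 2 of the control line, 4589 and 1724 without control siRNA libraries 1 and 2 of the knockout line, and 1143 and 1466 without its SET siRNA libraries 1 and 2.

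Genes outside the target lists were also among the largest losses. PVRL4, the adhesion protein nectin-4, stood at 19.0, 18.5 and 17.3 FPKM in the control line and at 0.0728 and 0.0695 in the knockout line (-4.17, limma adjusted p = 6.7e-10). NBEAP1, a pseudogene, stood at 34.5, 39.2 and 33.7 against 1.62 and 1.10 (-3.97). KISS1, which encodes the precursor of kisspeptin, stood at 101.3, 92.6 and 97.0 against 4.55 and 5.68 (-4.01), and KYNU, an enzyme of tryptophan breakdown, at 17.8, 19.8 and 22.7 against 0.578 and 0.798 (-3.64). Further losses were MYH16, a myosin pseudogene (-3.87), and the uncharacterised loci LOC100507165 (-3.86) and LOC643401 (-3.61). MYH16 lies in the chromosome 7 block, whose genes were lower as a group. The 7 genes of this paragraph, chosen among those whose groups did not overlap under SET siRNA, were called lower in the knockout line under control siRNA too. There 22.2% of all tested genes were. The interaction was not called for KISS1, MYH16 and LOC100507165, with differences of -3.94, -3.97 and -3.68 under control siRNA. PVRL4, TRIM22, LOC100507165, KYNU, INPP5D and MYH16 were below FPKM 1 in both knockout libraries and at least 10 in the 3 control libraries under SET siRNA, limits set after the values were seen.

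Fewer genes were gained in the knockout line. LOC643714, a noncoding locus on chromosome 16 (52585999 to 52640887), stood at 23.6 and 28.7 FPKM in the knockout line against 0.0795, 0.0745 and 0 in the control line (4.68). It lies within a block of chromosome 16 whose genes were lower as a group. GLUL, glutamine synthetase, stood at 5.998 and 5.752 FPKM against 0.406, 0.382 and 0.395 (2.30), and BCR, a GTPase regulator, at 4.34 and 3.87 against 0.182, 0.111 and 0.0814 (2.18). PDGFRA, a receptor tyrosine kinase of mesenchymal cells, stood at 6.14 and 6.23 against 0.954, 0.949 and 1.01 (1.86). SERPINF1 (1.86), TUSC5 (1.82), the hormone FGF21 (1.76), the myelin protein gene PMP22 (1.74) and the amino acid transporter gene SLC7A10 (1.72) had similar differences. LOC643714, GLUL, BCR, PDGFRA, SERPINF1, TUSC5, FGF21, PMP22 and SLC7A10 were higher in the knockout line under control siRNA as well, with differences from 1.19 to 4.74. There 25.7% of all tested genes were higher. The named gains were chosen among genes whose groups did not overlap under SET siRNA.

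The other 3 of the 12 largest gains differed from these. NME1-NME2 is a readthrough of 2 neighbouring genes whose reads it shares, and it stood at 9.37 and 6.12 FPKM against 1.81, 1.75 and 0.517 (1.92). Its call was lost without knockout SET siRNA library 1 (limma adjusted p = 0.0914). KRTAP20-2, a short keratin-associated protein gene, was listed at 3.11 and 2.38 FPKM in the knockout line with SET siRNA and at 0 in the 8 other libraries. It passed the filter on low values only through the 2 libraries where it is present, so its test is not used. HIST1H4I, a histone H4 gene that overlaps HIST1H2BK, stood at 4.60 and 3.81 FPKM against 1.20, 0.376 and 0 under SET siRNA (1.84), while under control siRNA the difference was -0.15, and the interaction of 1.99 was among the 4 most positive outside small RNAs.

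Large differences under SET siRNA were mostly found under control siRNA too. With control siRNA 22.2% of all tested genes were called lower and 25.7% higher, and the interaction was negative in 10.5% and positive in 8.6%. Of the 390 genes at least 2-fold lower, 363 (93.1%) were also called lower with control siRNA, 27 were not called and 0 were called higher. Their median difference was -1.36 under SET siRNA and -0.98 under control siRNA, and the interaction test called the difference larger under SET siRNA in 197, smaller in 12 and neither in 181. Of the 137 genes at least 2-fold higher, 114 (83.2%) were also higher with control siRNA, 2 were lower and 21 were not called. Their medians were 1.16 and 0.79, with the interaction larger under SET siRNA in 60 and smaller in 1. These medians were taken over genes chosen for their size under SET siRNA, which favours a smaller value in the other comparison. The 2 comparisons share no library, but they share both lines.

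**Figure D2:**
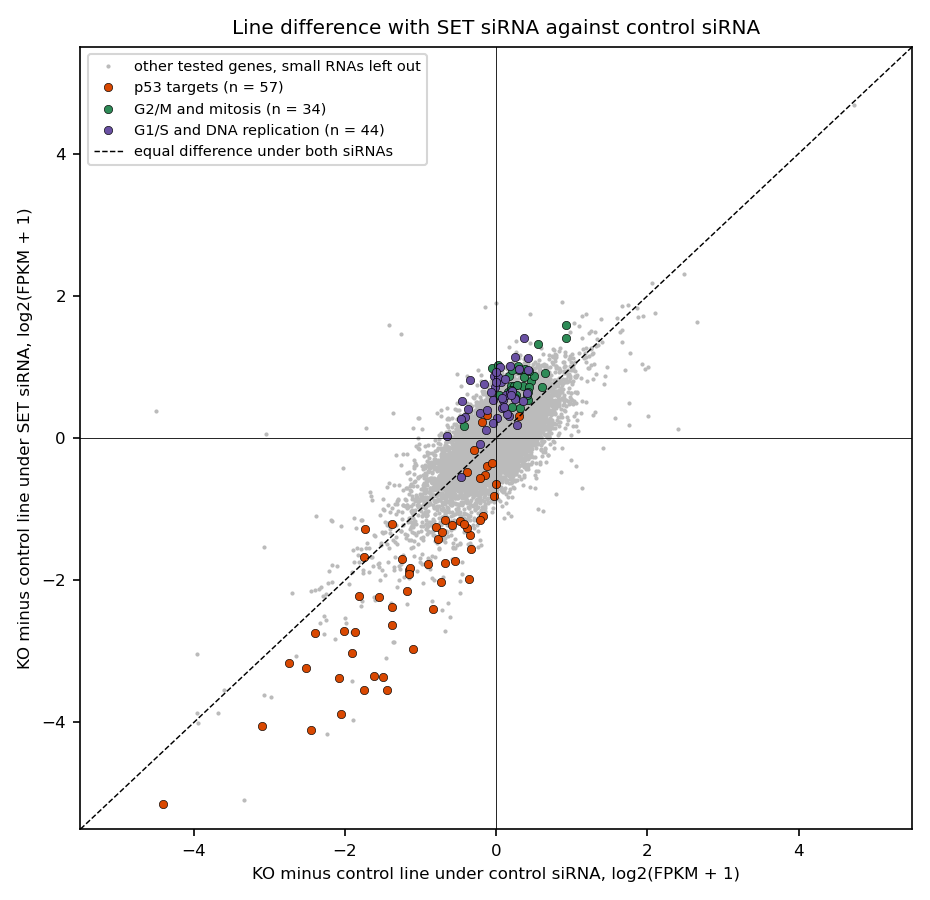
Difference between the knockout and the control line for each tested gene on the log2(FPKM + 1) scale, under control siRNA (x axis) and under SET siRNA (y axis), with p53 targets, G2/M genes and G1/S genes as coloured points and the dashed line marking equal differences. Most p53 targets lie below the line on the lower side, and most cell cycle genes lie above it on the higher side.

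Mitotic genes were higher in the knockout line under SET siRNA without exception among those listed. All 34 G2/M genes were tested and called higher, against 23.6% of all tested genes, with a median of 0.73 and 5 at least 2-fold higher. AURKB, the kinase of the chromosomal passenger complex, stood at 132 and 133 FPKM in the knockout line against 42.4, 44.3 and 42.9 in the control line (1.59, limma adjusted p = 1.4e-08), and lies in the chromosome 17 block. KIF11, a kinesin of the bipolar spindle, stood at 55.0 and 57.6 against 20.8, 21.3 and 19.5 (1.41, limma adjusted p = 1.4e-06). CENPA, the centromeric histone H3, stood at 86.6 and 91.2 against 33.6, 36.9 and 34.4 (1.32, limma adjusted p = 1.2e-06). PLK1, the mitotic kinase, stood at 79.9 and 76.8 FPKM against 38.0, 35.6 and 39.8 (1.03, limma adjusted p = 3.8e-06), with ERN2 listed across part of its interval. FOXM1, a transcription factor of this programme that lies in the chromosome 12 block, had the smallest difference (0.17). Leaving out AURKB, FOXM1 and NUSAP1, which lie in chromosome blocks, 31 of 31 were higher.

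Part of this difference between the lines was seen under control siRNA, where 30 of the 34 G2/M genes were higher and 1, FOXM1, was lower (median 0.30). There 25.7% of all tested genes were higher and 22.2% lower. The interaction was positive in 25 genes and negative in 0, against 8.6% and 10.5% of all tested genes. PLK1 and CDC20 are examples. PLK1 stood at 79.9 to 84.4 FPKM in the control line and 76.9 to 89.3 in the knockout line with control siRNA (0.02, not called), next to 35.6 to 39.8 and 76.8 to 79.9 with SET siRNA. CDC20, which activates the ubiquitin ligase APC/C, differed by -0.05, not called, under control siRNA and by 0.99 under SET siRNA. The summed FPKM of the 34 genes was 2812 to 2931 in the control line with control siRNA, 1970 to 2029 in the control line with SET siRNA, 3355 to 3604 in the knockout line with control siRNA and 3341 to 3431 in the knockout line with SET siRNA.

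Replication genes were also mostly higher in the knockout line with SET siRNA. Of 44 G1/S genes tested, 40 were higher and 1 lower in the knockout line with SET siRNA (median 0.58), whereas with control siRNA 15 were higher and 8 lower (median 0.05). The shares of all tested genes were 23.6% higher and 24.8% lower with SET siRNA, and 25.7% and 22.2% with control siRNA. For the G1/S genes the interaction was positive in 36 and negative in 0, against 8.6% and 10.5% of all tested genes. E2F2 and E2F1, transcription factors of S phase entry, stood at 24.0 and 24.2 FPKM against 8.09, 8.31 and 8.91 (1.41), and at 40.1 and 39.4 against 17.7, 16.6 and 18.4 (1.14). E2F8, a repressing E2F, and CDC25A, the phosphatase that activates CDK2, were higher by 1.13 and 1.01. PCNA, the sliding clamp, which is also a direct p53 target, was the 1 lower gene, at 183 and 193 FPKM against 273, 282 and 273 (-0.55, limma adjusted p = 5.9e-05). TYMS, MCM7 and LIG1 were not called. Outside the chromosome blocks 38 of 41 were higher and 1 was lower.

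Several of these genes had opposite directions under the 2 siRNAs. UHRF1, a reader of hemimethylated DNA, stood at 22.2 and 23.0 FPKM in the knockout line with SET siRNA against 11.8, 12.3 and 13.2 in the control line (0.81, limma adjusted p = 1.8e-05). With control siRNA it stood at 21.0 and 18.1 against 26.2, 24.6 and 24.3 (-0.34, limma adjusted p = 0.0036). CDT1, a replication licensing factor, gave 0.52 and -0.46 in the same order. In all, 251 genes were called in opposite directions with the interaction called too, 146 lower and 105 higher in the knockout line under SET siRNA. ENC1, an actin-binding kelch protein, was the clearest of the lower ones, at 45.7 and 41.7 FPKM against 73.1, 67.3 and 72.2 with SET siRNA (-0.69) and at 93.5 and 100 against 68.9, 75.7 and 69.0 with control siRNA (0.44).

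**Figure D3:**
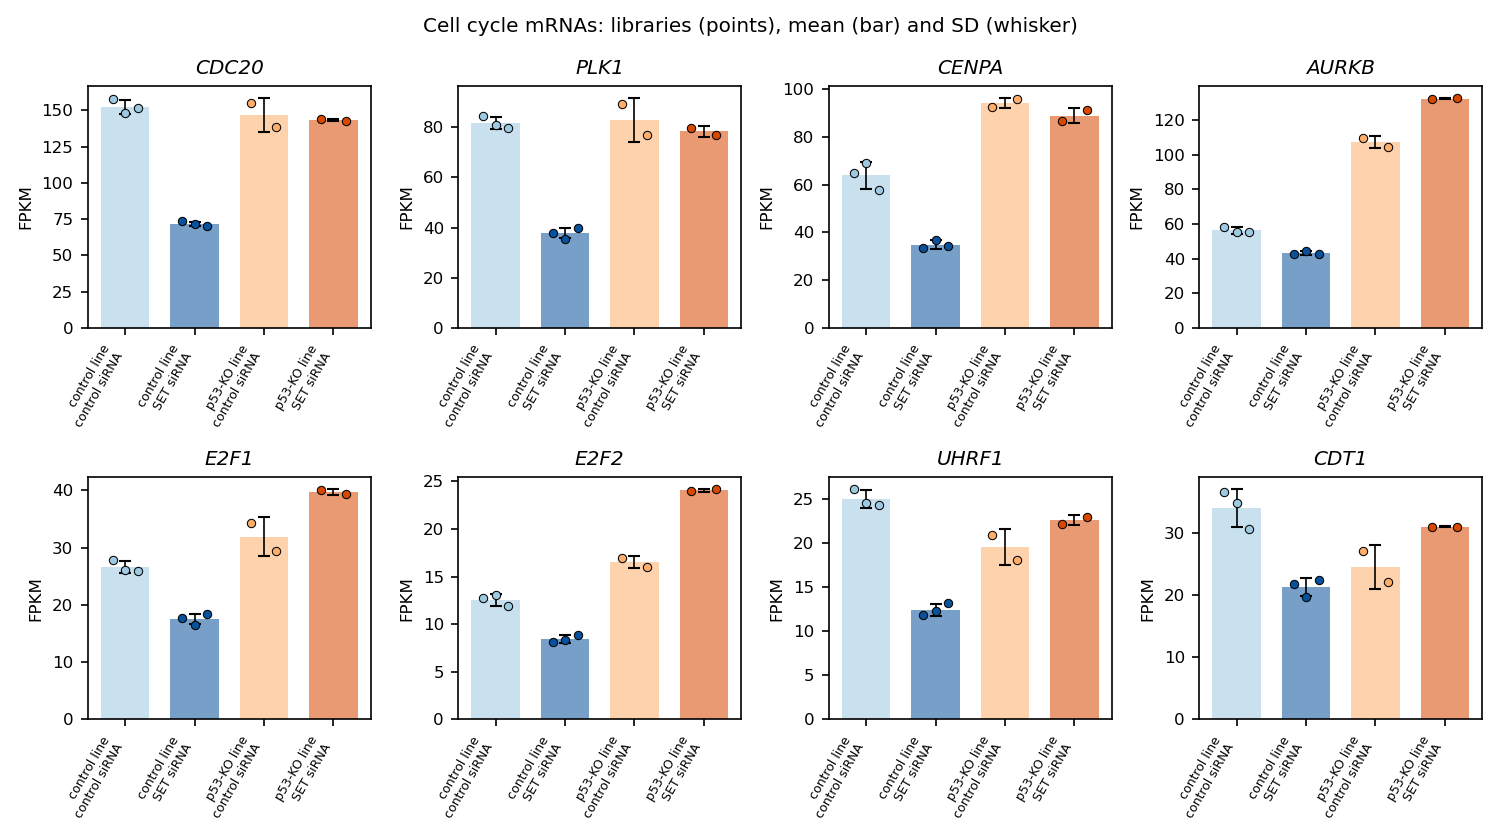
FPKM of 4 G2/M genes (CDC20, PLK1, CENPA, AURKB) and 4 G1/S genes (E2F1, E2F2, UHRF1, CDT1) in the 4 groups, with libraries as points, the mean as a bar and the standard deviation as a whisker. In each panel the control line with SET siRNA has the lowest mean, and the knockout line with SET siRNA lies above it.

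Promoters of the 2 cell cycle lists carried different short motifs. Windows from 250 bases before to 50 after the start of each gene were taken from RefSeq (GRCh38.p14), and 10679 windows of tested genes were matched by symbol. The CHR element (TTTGAA or TTCGAA, both strands), bound by the DREAM and MuvB complexes, was found in 19 of 28 matched G2/M promoters (67.9%), in 2 of 37 G1/S promoters (5.41%), in 11.1% of matched tested genes and in 16.6% of all 27305 windows. The E2F letters (TTTGGCGC, TTTCGCGC, TTTGCCGC or TTTCCCGC, both strands) were found in 21 of 37 G1/S promoters (56.8%), 3 of 28 G2/M promoters (10.7%), 5.32% of matched tested genes and 3.33% of all windows. CCAAT, the letters of NF-Y, stood in 78.6% of the G2/M and 56.8% of the G1/S windows, against 36.5% of matched tested genes and 35.7% of all windows. A match is a description of the letters and not evidence of binding. The lists were written down as known cell cycle genes, so these shares describe list membership and not a difference between the lines. In 10 of the 19 promoters a CHR match lay within the 60 bases before the start. These 60 bases are shown for 4 of the 10, with the CHR letters in capitals (the reverse strand reads TTCAAA): PLK1, KIF11 and CENPA, described above, and CCNB2, a B-type cyclin (0.60, limma adjusted p = 3.2e-05).
PLK1 (chr16:23678829-23678888, + strand): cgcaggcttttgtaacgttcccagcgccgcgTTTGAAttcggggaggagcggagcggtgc
KIF11 (chr10:92593070-92593129, + strand): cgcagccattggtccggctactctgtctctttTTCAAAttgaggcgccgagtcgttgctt
CENPA (chr2:26785996-26786055, + strand): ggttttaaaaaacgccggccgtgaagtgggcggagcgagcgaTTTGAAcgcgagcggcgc
CCNB2 (chr15:59105086-59105145, + strand): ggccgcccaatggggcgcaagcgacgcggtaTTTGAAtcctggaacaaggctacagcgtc

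The same stretch is shown for 4 G1/S genes chosen because it holds E2F letters in capitals on either strand, with 2 matches in E2F1.
E2F1 (chr20:33686386-33686445, - strand): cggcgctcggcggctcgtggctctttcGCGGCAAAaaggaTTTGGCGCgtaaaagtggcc
E2F2 (chr1:23531234-23531293, - strand): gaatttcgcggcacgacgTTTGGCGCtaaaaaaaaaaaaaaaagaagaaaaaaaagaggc
CDC25A (chr3:48188418-48188477, - strand): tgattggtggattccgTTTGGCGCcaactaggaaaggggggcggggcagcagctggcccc
UHRF1 (chr19:4909441-4909500, + strand): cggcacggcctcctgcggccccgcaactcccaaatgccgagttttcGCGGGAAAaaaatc

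The p53 element was searched as 2 half-sites of 10 bases with a spacer of up to 13 bases and at most 2 mismatches outside the core C and G. It was found in 17 of 251 matched promoters of genes at least 2-fold lower in the knockout line (6.77%), in 3 of 101 of those at least 2-fold higher (2.97%), in 2.37% of matched tested genes and in 2.94% of all windows. Of 44 matched p53 targets, 3 held it in this window (6.82%): AEN, an exonuclease of apoptosis, FDXR and GLS2, a glutaminase. AEN was lower by -1.67 and FDXR by -3.23 in the knockout line, and their half-sites are in capitals.
AEN (chr15:88621280-88621339, + strand): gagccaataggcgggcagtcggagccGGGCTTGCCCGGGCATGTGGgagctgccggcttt
FDXR (chr17:74872995-74873054, - strand): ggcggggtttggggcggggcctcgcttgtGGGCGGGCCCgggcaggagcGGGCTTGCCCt

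Regulators of the cell cycle and of p53 itself were split. Of 14 tested CDK inhibitors, D cyclins, their kinases and RB family members, 8 were higher and 4 lower (median 0.26). Among all tested genes 23.6% were higher and 24.8% lower. CDKN2C, the inhibitor p18, stood at 38.2 and 36.5 FPKM against 14.4, 14.8 and 13.5 (1.33), and CDKN2D, p19, was higher by 0.81, while cyclin D2, CCND2, was lower by -1.11 and the RB relative RBL2 by -0.72. CCND2, CDK6 and RBL2 lie in chromosome blocks that were lower as a group, and without the blocks 8 were higher and 1 lower. Of 26 tested p53 family members and regulators, 12 were higher and 6 lower (median 0.13). The checkpoint kinases CHEK1 and CHEK2 were higher by 0.63 and 0.48, and KAT2B, an acetyltransferase of p53, was lower by -0.56.

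Among the partners of SET and the PP2A subunits, 12 of 21 were higher and 2 lower (median 0.24), against 23.6% and 24.8% of all tested genes. PPP2R5C, a regulatory subunit of PP2A, stood at 23.8 and 25.5 FPKM against 16.3, 14.4 and 15.7 (0.64), ANP32E, an acidic histone chaperone, was higher by 0.63 and HMGB2, a chromatin protein of the SET complex, by 0.59. PPP2CB, a catalytic subunit, was lower by -0.52. NME1 was the other lower gene, and shares reads with the readthrough NME1-NME2. The count of lower genes was 1 without SET siRNA libraries 2 or 3 of the control line, its control siRNA libraries 1 or 2, or either SET siRNA library of the knockout line. It was also 1 with no filter, with median-of-ratios scaling, with the replicate block and with no trend.

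Antigen presentation genes were lower in the knockout line under both siRNAs. Of 16 genes of MHC class I and its processing, 15 were lower with SET siRNA (median -0.65, against 24.8% of all tested genes) and 16 with control siRNA (median -0.63). TAP1, a subunit of the peptide transporter, stood at 6.06 and 6.68 FPKM against 29.8, 27.3 and 26.5 (-1.97, limma adjusted p = 6.7e-08) and was further apart under SET siRNA by 0.82 (interaction -0.82). PSMB9, an immunoproteasome subunit, was lower by -1.13, TAPBP, the chaperone tapasin, by -1.02 and the peptidase ERAP2 by -0.87. B2M, the light chain of class I molecules, stood at 399 and 394 against 640, 639 and 636 FPKM (-0.69). TAP2 was not called under SET siRNA.

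Interferon-stimulated genes did not move one way. Of 19 tested of 29 listed, 9 were lower and 6 higher (median -0.29), a split seen under control siRNA too (8 lower and 5 higher). Under SET siRNA 24.8% of all tested genes were lower and 23.6% higher. IFIT1, an RNA-binding antiviral protein, stood at 9.52 and 7.58 FPKM against 2.36, 1.99 and 2.21 (1.58), and IFITM1, a membrane protein, was higher by 1.03, while IFI44 was lower by -1.55 and the oligoadenylate synthetase OAS3 by -0.74. Of 16 inflammatory genes tested 10 were lower and 1, CXCL3, higher (median -0.44), against 12 lower and 0 higher with control siRNA (median -0.58). CSF2, the cytokine GM-CSF, stood at 1.58 and 1.45 FPKM against 16.2, 17.0 and 13.9 (-2.72), the chemokine CCL3 at 0.411 and 0.157 against 7.84, 7.14 and 7.14 (-2.71), and BIRC3, an NF-kB target, was lower by -1.75. For CCL3 the interaction was -2.03, among the 4 most negative outside small RNAs. Over the inflammatory list the interaction was positive in 3 and negative in 4. The CXCL3 call was lost without either SET siRNA library of the knockout line.

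Genes of the matrix and its proteases were mostly lower in the knockout line. Of 27 tested matrix proteins, 20 were lower and 3 higher (median -0.41), and of 19 proteases and plasminogen genes 13 were lower and 2 higher (median -0.32). With control siRNA 20 of the 27 matrix genes were lower and 5 higher (median -0.48). Of the 19 proteases and plasminogen genes, 11 were lower and 3 higher there (median -0.33). The shares of all tested genes were 24.8% lower and 23.6% higher with SET siRNA, and 22.2% and 25.7% with control siRNA. Under SET siRNA the count of higher matrix genes was 1 without SET siRNA library 1 of the control line. It was 0 without SET siRNA library 1 of the knockout line. MMP3, stromelysin, stood at 222 and 224 FPKM against 564, 574 and 686 (-1.44, limma adjusted p = 5.7e-06), with a difference of -0.21, not called, under control siRNA and an interaction of -1.22. MMP9, the collagenase gene MMP1 and the urokinase gene PLAU were lower by -1.27, -0.996 and -0.96, against -1.85, -1.50 and -1.12 with control siRNA. CTGF, a matricellular protein, stood at 96.5 and 95.7 against 166, 163 and 194 (-0.85), and COL8A1 and MFAP5 were lower by -0.87 and -1.15. COL3A1, a fibrillar collagen, was higher by 0.97, but its adjusted p was 0.0511 without knockout SET siRNA library 1. MMP1 and MMP3 overlap LOC100288077, MMP9 overlaps LOC100128028, PLAU overlaps C10orf55 and CTGF overlaps LOC100131774 in the files.

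Keratins, structural proteins of epithelial cells that U2OS cells also express, were lower in 8 of 10 tested genes and higher in 0 (median -0.76), and with control siRNA in 10 of 10 (median -0.95). The lower share of all tested genes was 24.8% with SET siRNA and 22.2% with control siRNA. KRT8 stood at 101.2 and 109.1 FPKM against 265, 263 and 272 (-1.34, limma adjusted p = 1.2e-06), and KRT15 at 1.73 and 1.13 against 8.69, 9.73 and 10.3 (-2.13). KRT17 and KRT34 were lower by -1.30 and -1.24. The epithelial marker list, whose 1 keratin (KRT5) was below 0.4 FPKM in every library, moved with this, with a summed FPKM of 15.1 to 17.6 in the control line and 10.3 to 11.3 in the knockout line under SET siRNA, where CDH1 (-0.57) and CLDN4 (-0.88) were 2 of the 3 tested of 7, and both were lower. EPCAM was not called, and GRHL2, CLDN7, ESRP1 and KRT5 did not pass the filter. Mesenchymal markers summed to 1345 to 1460 in the knockout line and 1066 to 1151 in the control line, mostly from VIM (0.41), and of 6 tested 3 were higher and 1, CD44 (-0.97), was lower. Osteoblast markers summed to 281 to 301 against 330 to 367, and of 6 tested 2 were lower, SPP1 (-2.04) and SPARC (-0.22), and 2 higher, RUNX2 (0.66) among them (median -0.07). The part of these marker levels in the other results was not tested.

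In the EGF receptor family 6 of 9 tested genes were lower and 0 higher (median -0.66). TGFA, a ligand, stood at 7.44 and 6.18 FPKM against 34.1, 29.2 and 30.8 (-2.05), the ligand genes AREG and NRG1 were lower by -1.68 and -1.37, and the receptor EGFR by -0.79. The interaction was called in 0 of the 9 by limma at an adjusted p below 0.05. Contractile genes differed little as a group, with 4 of 18 higher and 3 lower, against 23.6% and 24.8% of all tested genes. ACTA2, which overlaps FAS, stood at 0.462 and 0.579 against 11.2, 10.1 and 9.07 (-2.87), MYLK, myosin light chain kinase, was lower by -1.32 and the troponin gene TNNT2 by -0.77, and CNN1, calponin, was higher by 1.02. The count of higher contractile genes was 2 without SET siRNA library 1 or 2 of the control line, and 2 and 1 without SET siRNA library 1 and 2 of the knockout line. The count of lower ones was 5 without either control siRNA library of the knockout line.

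The ATF4 list held fewer higher genes in the knockout line under SET siRNA than under control siRNA. Of 27 genes of the ATF4 amino acid response, 10 were higher and 5 lower with SET siRNA (median 0.09), against 19 higher and 3 lower with control siRNA (median 0.35). Of all tested genes 23.6% were higher and 24.8% lower with SET siRNA, and 25.7% and 22.2% with control siRNA. The interaction was negative in 14 of the ATF4 genes and positive in 1, against 10.5% and 8.6% of all tested genes. A negative value here covers smaller rises, such as CTH (1.28 with control and 0.32 with SET siRNA), opposite directions, in ASNS (0.49 and -0.27), CHAC1 (0.51 and -0.26) and NUPR1 (0.37 and -0.11), and a larger fall, in ATF3 (-0.29 and -1.26). ATF3, a stress transcription factor, stood at 20.1 and 22.2 FPKM against 51.2, 53.4 and 51.4 (limma adjusted p = 8.7e-07), and TRIB3, a pseudokinase induced by ATF4, at 83.4 and 79.0 against 44.7, 43.8 and 47.1 (0.83, and 0.92 with control siRNA). AARS, an aminoacyl-tRNA synthetase gene that lies in the chromosome 16 block, was lower by -0.52 and WARS higher by 0.41, against -0.54 and 0.61 with control siRNA. The count of lower genes was 3 without SET siRNA library 2 or 3 of the control line, or either SET siRNA library of the knockout line, and also without genes in chromosome blocks. The genes in blocks were AARS and ASNS, and ASNS lies in the chromosome 7 block, whose genes were lower as a group.

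Cholesterol synthesis genes were higher in 11 of 23 tested and lower in 2 (median 0.16) under SET siRNA, against 4 higher and 8 lower under control siRNA. Their interaction was positive in 13 and negative in 0, against 8.6% and 10.5% of all tested genes. INSIG1, a regulator of SREBP processing, stood at 18.5 and 16.8 FPKM against 8.85, 8.95 and 10.6 (0.84). SQLE, squalene epoxidase, was higher by 0.71, the transcription factor SREBF2 by 0.70 and DHCR7, the last enzyme of the pathway, by 0.59. HSD17B7 and MVD were the 2 lower genes, a count that was 1 without SET siRNA library 3 of the control line or either SET siRNA library of the knockout line. Of 25 hypoxia and glycolysis genes 7 were higher and 3 lower (median 0.07), against 23.6% and 24.8% of all tested genes. The largest differences were at EGLN3 (0.96), PGAM1 (0.57) and HK2 (0.52). EGLN3 and HK2 lost their call without knockout SET siRNA library 1 (limma adjusted p = 0.102 and 0.113), HK2 also without SET siRNA library 2 of the control line (limma adjusted p = 0.0542), and the count of higher genes was 4 without knockout SET siRNA library 1. TPI1 (-0.45) and ENO2 (-0.27) of the lower genes lie in the chromosome 12 block, and the count of lower genes was 1 without knockout SET siRNA library 2.

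Cytosolic ribosomal proteins served as a list with little movement: 6 of 45 were higher and 3 lower (median 0.03), against 23.6% and 24.8% of all tested genes. RPL26, which lies in the chromosome 17 block, was the exception, at 1446 and 1483 FPKM against 643, 671 and 688 (1.13, limma adjusted p = 4.7e-07). RPL8 was higher by 0.38, and RPL13 and RPS19 were lower by -0.36 and -0.34. The count of lower genes was 5 under quantile normalization.

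**Figure D4:**
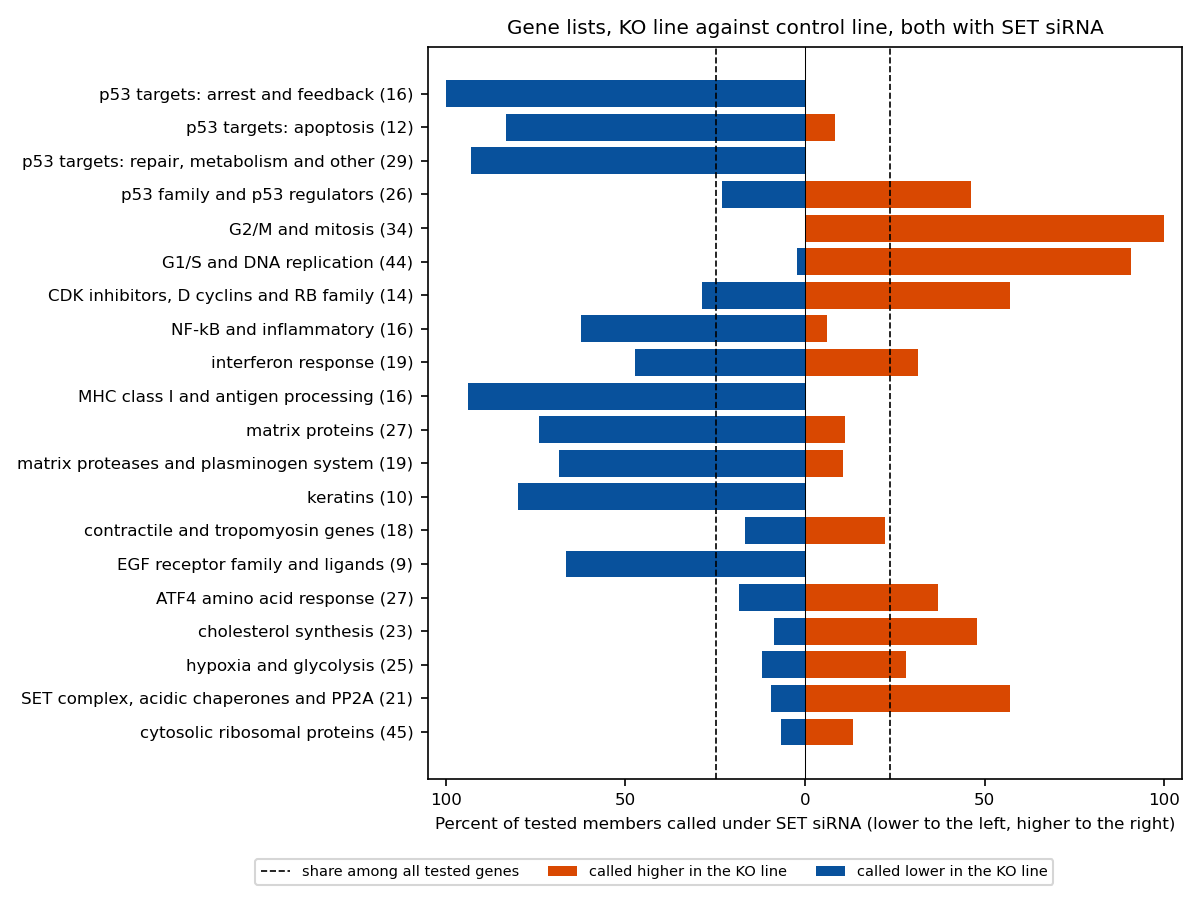
Percent of the tested members of each gene list called lower (to the left) or higher (to the right) in the knockout line against the control line, both with SET siRNA, with the number tested beside each list name and dashed lines at the shares of all tested genes. The p53 target lists and antigen presentation reach furthest to the left and the cell cycle lists furthest to the right of the dashed lines.

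Some of the differences between the lines lay in chromosome blocks. The median difference under SET siRNA was taken in windows of 30 neighbouring genes of mean FPKM 5 or more, and windows of at least 0.4 in size were merged into 7 blocks that hold 490 genes. The blocks were chosen by these values, so they are given with no test. On chromosome 17 (7476024 to 26733230), 100 genes that include AURKB, PMP22 and RPL26 had a median of 0.72 under SET siRNA and 0.64 under control siRNA. Blocks on chromosome 10 had medians of 0.39 (50 genes, 13203554 to 30638267) and 0.44 (30 genes, 104845940 to 115672265). Lower blocks lay on chromosome 12 (87984 to 7261869, 60 genes, -0.51), chromosome 16 (50321823 to 75019017, 130 genes, -0.46), chromosome 15 (41523437 to 44855001, 40 genes, -0.44) and chromosome 7 (91875548 to 102105321, 80 genes, -0.42). Each block had the same sign under control siRNA, which are other libraries of the same lines, with -0.57, -0.52, -0.22 and -0.46 for the lower blocks in that order. Outside the blocks, 16 of 16, 10 of 12 and 25 of 27 tested genes of the 3 p53 target lists were lower.

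**Figure D5:**
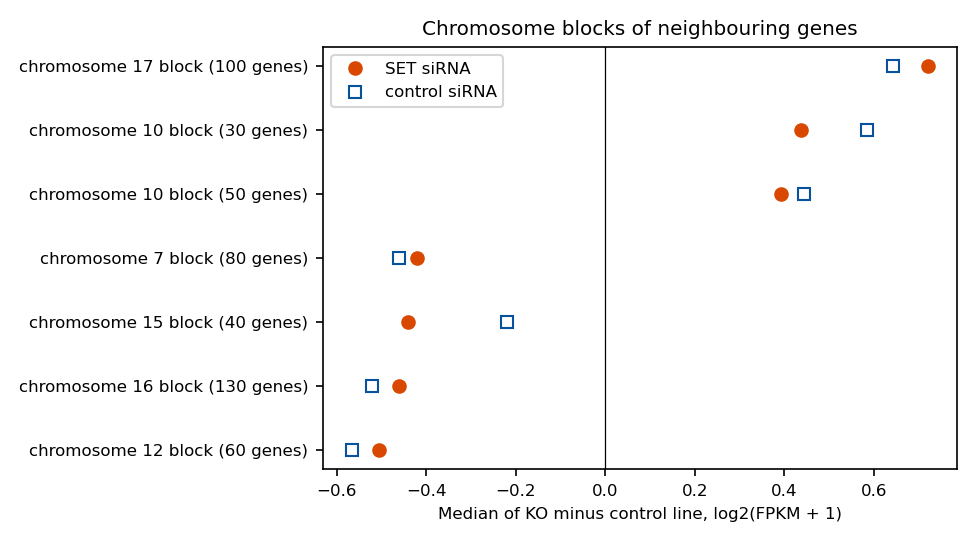
Median difference between the knockout and the control line on the log2(FPKM + 1) scale in the 7 chromosome blocks, under SET siRNA (filled circles) and control siRNA (open squares), with the number of genes in each block. The chromosome 17 block is highest at 0.72 and 0.64, and the 4 lower blocks lie below 0 under both siRNAs.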

How the data were processed

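RNA was measured in 10 libraries of the 2 U2OS lines, grouped by their titles because the series design text is contradictory about the CRISPR target. The deposited files hold FPKM per gene with an interval and a status, made by the authors. The submitters' processing notes name Cufflinks 2.0.2, TopHat2 2.0.4 and bcl2fastq 1.8.4. The sources used here give no genome build, annotation or depth. Each file lists 25593 entries, of which 45 repeat a symbol. For a repeated symbol such as INPP5D, the entry of highest mean was used in the lists. limma 3.58.1 in R 4.3.3 was fitted with a trend to log2(FPKM + 1) of all 10 libraries in 4 groups, with Benjamini-Hochberg adjustment over all 14813 genes and a threshold of 0.05. The interaction is the line difference under SET siRNA minus that under control siRNA. The procedure was tested on simulated data. Python 3.11.15 did the remaining work.

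Named genes were the 12 largest rises and falls whose groups did not overlap (small RNAs left out), SET, CDKN1A, MDM2 and BBC3, up to 4 called members with the largest change per list, and the 4 most positive and negative interactions. DDB2, SESN1, PML, BAX, BID, CCNG1, CCNB2, CTH, ASNS, CHAC1, NUPR1, CDC20, FOXM1, PCNA, UHRF1, CDT1, AEN, GLS2, ENC1, B2M, ENO2, NME1, CXCL3, HSD17B7, MVD and the cell type markers with values were named after their values were seen. A few genes chosen in this way are left out of the text. The members and gene lists were chosen with earlier results of these data known. Promoter windows came from RefSeq, GRCh38.p14, and no coordinate was converted between builds. Alternatives changed the pseudocount, filter, scaling, variance model, status filter, fold minimum, libraries fitted and replicate block, and left out each library in turn.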

Additional observations from a re-analysis of the deposited data

Results flagged for a closer look

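A difference between the lines that differed between the 2 siRNAs by limma's interaction test was found in 2831 genes. Among the genes named by rule, the knockout line was further below the control line under SET siRNA for MDM2 (interaction -2.10 on the log2(FPKM + 1) scale), NBEAP1 (-2.08), CCL3 (-2.03), PVRL4 (-1.94), BTG2 (-1.83), INPP5D (-1.65), TRIM22 (-0.96), CDKN1A (-0.74), BBC3 (-0.70), KYNU (-0.66) and LOC643401 (-0.53). CCL3, PVRL4, INPP5D, TRIM22 and KYNU were below FPKM 1 in every knockout library, so their interactions depend in part on the 1 added to FPKM.

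The interaction was positive for PMP22 (0.55), which lies in the chromosome 17 block. It was also positive for HIST1H4I (1.99), KRTAP21-2 (3.00), LOC100652895 (3.10) and LOC100652795 (2.73). LOC100652895 overlaps VPS4B and LOC100652795 overlaps SCARB1 in the files. LOC100652895 stood at 6.503 and 3.064 FPKM in the knockout line with SET siRNA and at 1.48 and 2.0e-06 with control siRNA, so its libraries within a group spread widely. No group holds enough libraries to test single libraries for distance from the others.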

How the results depend on the processing

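The number of genes called under SET siRNA was 7173, and 5773 to 8388 over the planned settings that kept all libraries and the adjusted p alone. It was 5175 to 7699 when each library was left out in turn. With a 2-fold minimum 527 genes were called, 373 with control siRNA and 92 for the interaction. Leaving out single libraries moved the interaction count from 2831 to between 1143 and 4589, and the control siRNA count of 7101 to between 4800 and 7554. The higher share of calls was 48.8%, and 51.5% under the stricter filter and 53.9% under quantile normalization, where higher calls became the majority.

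With the replicate number as a block, 7233 genes were called under SET siRNA, 7189 under control siRNA and 3400 for the interaction. Deviations of same-numbered libraries of different groups correlated by -0.0833 to 0.228 across genes, and those of unlike-numbered libraries by -0.228 to 0.151. The highest values were those of control siRNA libraries 1 and 2 between the lines (0.217 and 0.228). With 2 knockout libraries per group each deviation mirrors the other, so these correlations cannot decide whether the numbers pair the libraries.

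Over 2174 values of 104 named genes under the alternative settings, 2163 had the same direction and side of the threshold, 9 lost the call and 2 reversed. LOC100652895, which was not called (0.05), had -0.39 and 0.49 as its lowest and highest values with 1 library left out, and -0.23 without SET siRNA library 1 of the control line. KRTAP21-2 had an adjusted p of 0.0513 without knockout SET siRNA library 2, and LOC100652795 0.0635 to 0.232 without SET siRNA library 1 or 3 of the control line or knockout SET siRNA library 1. The cause was not tested. Counting error cannot be given for FPKM without depth, and 2 knockout libraries per group limit the precision.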
